A study of Homo sapiens with 4 samples.

Results

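The regions described here are the H3K27ac peaks of SKP2-silenced RD cells that each spanned several separate H3K27ac peaks of the control cells. RD is an established human line derived from a fusion-negative rhabdomyosarcoma, a childhood soft-tissue tumour whose cells express the muscle determination factor MYOD but do not complete muscle differentiation. One shRNA line against SKP2 (labelled shSKP2, genotype SKP2 knockdown) was set against a line with a scrambled shRNA (labelled shSCR, genotype WT), and each was profiled by ChIP-seq for H3K27ac and for MYOD. There was 1 library per line and antibody, 4 in all, so no value below has a replicate error and no test between the lines was possible. Every interval is a 95% interval for counting error alone (Wilson for a share, Newcombe for a difference of shares, exact Poisson for a density).

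The deposited data were peak lists. A peak was selected when it lay on chromosomes 1 to 22, X or Y of the knockdown list and overlapped 2 or more peaks of the control list by at least 1 bp. This held for 2129 of 38457 knockdown H3K27ac peaks, or 5.54% (5.31 to 5.77), which is the selection itself and not a result. These 2129 are called joining peaks, and the stretch between neighbouring control peaks that a joining peak ran across is called a filled gap. The control H3K27ac list held 25356 peaks, and the MYOD lists held 8457 peaks in knockdown cells and 5814 in control cells.

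H3K27ac is a histone mark, so it is carried by nucleosomes and is laid down at active promoters and enhancers by the acetyltransferases p300 and CBP. Where transcription factors or the transcription machinery sit on the DNA, nucleosomes are displaced, and the acetylation then appears as shoulders on either side of a valley. MYOD is a basic helix-loop-helix factor that binds E-boxes, above all CAGCTG, and recruits p300 to muscle enhancers. SKP2 is the F-box subunit of a ubiquitin ligase that marks the CDK inhibitor p27 and other proteins for degradation. Such valleys are found at the starts of active genes and at the factor-bound cores of enhancers.

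The DNA of some filled gaps from both settings is printed below. Nucleosomes were not measured, and a valley in these data is a break between called peaks. The first set below shows gaps that held a MYOD peak in knockdown cells at muscle genes, with the MYOD peak upstream of MYOG itself and a gap far from any gene added for contrast. All are the hg38 plus strand, written 5′ to 3′, and capitals mark E-boxes, either the CAGCTG form or the form written CAGGTG on one strand and CACCTG on the other. Where a gap reached into an annotated untranslated region, only the longest stretch outside it is printed. The MYOG, MUSK, LBX1 and MYH7 stretches were picked for printing after their values were seen.
MYOG, knockdown MYOD peak in the filled gap, chr1:203091907-203092121: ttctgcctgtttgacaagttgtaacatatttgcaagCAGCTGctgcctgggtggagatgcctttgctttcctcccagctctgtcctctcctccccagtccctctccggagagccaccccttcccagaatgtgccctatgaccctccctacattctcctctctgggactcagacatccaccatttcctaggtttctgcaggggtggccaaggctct
MUSK, upstream part of the filled gap, chr9:110668618-110668778: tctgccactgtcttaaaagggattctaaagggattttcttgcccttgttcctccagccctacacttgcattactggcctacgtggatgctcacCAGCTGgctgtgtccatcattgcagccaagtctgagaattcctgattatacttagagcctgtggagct
TEAD4, filled gap in intron 10, chr12:3033580-3033801: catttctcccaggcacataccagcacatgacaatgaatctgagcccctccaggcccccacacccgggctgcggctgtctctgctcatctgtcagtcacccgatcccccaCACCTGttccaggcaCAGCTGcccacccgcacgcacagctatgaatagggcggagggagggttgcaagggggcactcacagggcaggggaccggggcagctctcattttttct
LBX1, filled gap in its antisense gene, chr10:101230226-101230503: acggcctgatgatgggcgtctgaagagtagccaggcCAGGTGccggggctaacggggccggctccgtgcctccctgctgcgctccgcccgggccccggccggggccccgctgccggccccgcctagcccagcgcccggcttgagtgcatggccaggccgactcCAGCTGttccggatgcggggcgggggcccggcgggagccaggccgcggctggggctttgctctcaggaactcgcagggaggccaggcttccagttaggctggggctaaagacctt
MYH7, filled gap upstream, chr14:23438704-23438901: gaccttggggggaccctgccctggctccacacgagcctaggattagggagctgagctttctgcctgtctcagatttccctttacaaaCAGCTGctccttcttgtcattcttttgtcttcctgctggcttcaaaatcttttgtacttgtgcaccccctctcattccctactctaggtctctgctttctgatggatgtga
Intergenic, no protein-coding start within 100 kb, chr7:47179815-47180033: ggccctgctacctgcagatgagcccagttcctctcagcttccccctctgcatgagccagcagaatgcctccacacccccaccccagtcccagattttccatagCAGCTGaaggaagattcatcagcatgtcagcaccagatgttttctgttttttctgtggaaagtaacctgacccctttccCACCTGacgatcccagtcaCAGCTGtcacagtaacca
Each of these 6 stretches held at least 1 CAGCTG, and the intergenic one held 2 of them and 1 CACCTG.

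The second set shows filled gaps that held a transcription start site (TSS), at broadly expressed genes: TIA1, which encodes an RNA-binding protein of stress granules, and CD63, a tetraspanin of late endosomes. They are shown for their richness in G, C and CG dinucleotides.
TIA1, upstream part of the filled gap, chr2:70248661-70248823: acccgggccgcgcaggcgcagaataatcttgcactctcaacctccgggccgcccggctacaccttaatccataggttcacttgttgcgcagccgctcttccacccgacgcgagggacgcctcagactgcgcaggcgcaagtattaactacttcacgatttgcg
CD63, upstream part of the filled gap, chr12:55729010-55729137: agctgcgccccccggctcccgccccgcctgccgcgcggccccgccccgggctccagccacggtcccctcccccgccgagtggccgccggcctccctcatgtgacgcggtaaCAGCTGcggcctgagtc
The TIA1 stretch held 17 CG dinucleotides and neither of the E-box forms marked by capitals. The CD63 stretch also held 17, at 80.5% GC, and had 1 CAGCTG near its end, inside a 188 bp gap that carried a MYOD peak in both lists. That length is less than the smallest distance between peaks in the knockdown list, so the joining at CD63 cannot be told apart from that limit. By comparison the TEAD4 gap held 7 CG dinucleotides and the MUSK stretch 1.

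Most joining peaks spanned just a pair of control peaks. Of the 2129, 1996 joined 2 control peaks, 129 joined 3 and 4 joined 4, and together they took in 4394 of the 25356 control peaks (17.3%, 16.9 to 17.8). The reverse, a control peak that spanned 2 or more knockdown peaks, was seen for 135 of 25356 control peaks (0.532%, 0.450 to 0.630). A further 17651 knockdown peaks overlapped exactly 1 control peak (single-overlap peaks below) and 18677 overlapped none (knockdown-only peaks). Knockdown H3K27ac peaks covered 23.7 Mb and control peaks 11.6 Mb.

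The joining peaks were wide, as the selection made them. Their median width was 1371 bp (quartiles 1115 and 1699 bp, range 335 to 3439 bp), against 647 bp for single-overlap peaks and 356 bp for knockdown-only peaks. The control peaks they spanned were of ordinary size, with a median of 374 bp against 360 bp for the other control peaks. Of the 3.02 Mb of summed joining width, 60.8% lay in control peaks, 21.7% in filled gaps and 17.5% beyond the outermost control peaks. For the median joining peak this was 803 bp in control peaks, 256 bp in gaps and 188 bp beyond them. Of the 2129, 1043 (49.0%) extended past the control peaks on both sides, and 211 (9.91%) extended past neither side.

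The strongest point of a joining peak was rarely in the gap. Each peak has a summit, the position of highest pileup, and a fold, the pileup there over the local background. The knockdown summit lay inside one of the joined control peaks in 1992 of 2129 cases (93.6%, 92.4 to 94.5), in a filled gap in 105 (4.93%, 4.09 to 5.94) and beyond the outermost control peak in 32 (1.50%). The median fold at the summit was 5.78 in joining peaks and 4.74 in the strongest control peak of each. The knockdown fold was above that of every joined control peak in 1708 of 2129 (80.2%, 78.5 to 81.9), against 74.6% (74.0 to 75.3) of single-overlap peaks whose fold was above that of their 1 control peak. Folds of the lists are each scaled to their own background, so these shares compare lists and not amounts of acetylation. The selection also takes peaks called in knockdown cells across stretches where control cells had none. It thus favours a higher knockdown fold, and the comparison of the shares is a description only.

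The filled gaps were short. There were 2266 of them, with a median length of 248 bp (quartiles 210 and 315 bp, range 181 to 1089 bp). They were set against 3369 gaps of up to 2 kb whose flanking control peaks were each overlapped by a knockdown peak but never by the same one, called kept-apart gaps, with a median of 395 bp (quartiles 308 and 576 bp). A knockdown peak could reach into a kept-apart gap without crossing it, and the median kept-apart gap was covered to 17.2%. Among these 5635 gaps the share that was filled was 92.7% (89.8 to 94.8) under 200 bp, 48.1% (46.4 to 49.8) at 200 to under 400 bp, 20.5% (18.4 to 22.7) at 400 to under 700 bp and 10.7% (7.79 to 14.4) at 700 to under 1000 bp. From 1000 to under 2000 bp, 1 of 265 gaps was filled, the one at GMEB2. The plot of gap lengths shows the filled gaps piled against the shortest length either list could resolve.

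**Figure D1:**
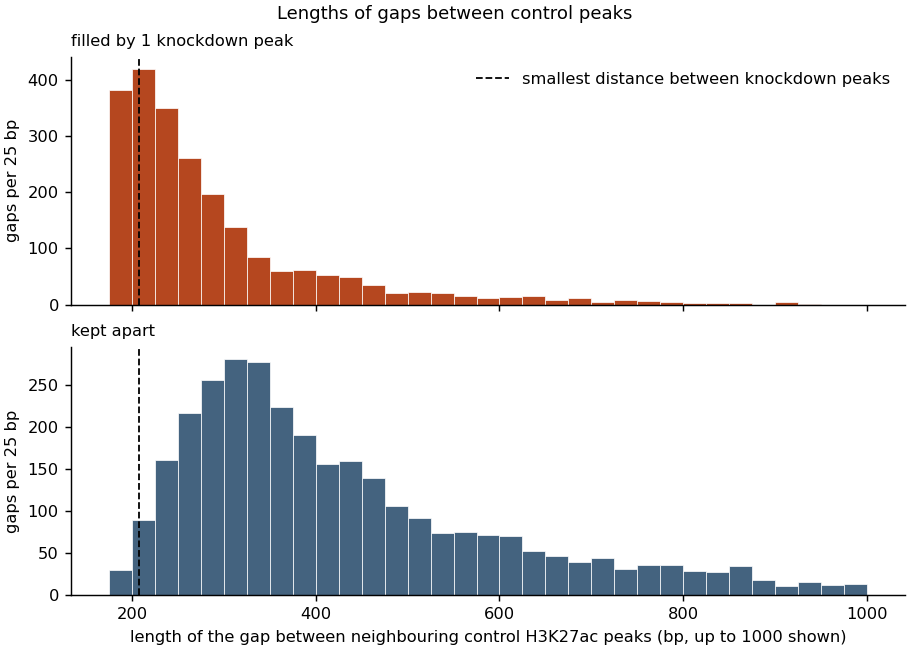
Histograms of gap length in bp (25 bp bins, gaps up to 1000 bp) for the 2266 filled gaps (top) and the 3369 kept-apart gaps (bottom), with the number of gaps on the vertical axis. The filled gaps crowd between 181 and 315 bp and the kept-apart gaps peak above 300 bp. The dashed line marks 207 bp, the smallest distance between neighbouring knockdown peaks.

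That shortest length differed between the lists, which bears directly on the selection. Neighbouring peaks were never closer than 207 bp in the knockdown H3K27ac list and 181 bp in the control list, and the narrowest peaks were 206 and 180 bp wide, so a valley under 207 bp could be reported in control cells and could not be reported in knockdown cells. Of the filled gaps, 507 (22.4%, 20.7 to 24.1) were shorter than 207 bp, against 43 of the kept-apart gaps (1.28%). The 92.7% filled under 200 bp concerns gaps wholly below that limit and cannot be told apart from it. For 448 joining peaks (21.0%) every filled gap was that short, and 1681 (79.0%, 77.2 to 80.6) had at least 1 longer gap. With control peaks up to 206 bp apart merged first, an alternative chosen after the data were seen, 1681 joining peaks remained. The lowest background implied by the deposited folds and p-values was 1.61 fragments per position in the knockdown H3K27ac list and 1.75 in the control list, a ratio of 0.92, and its part in the joining was not tested.

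Over all peaks the promoter share of joining peaks was close to that of single-overlap peaks. A peak was counted as promoter when its summit lay within 2 kb of the canonical TSS of a protein-coding gene, and this held for 868 of 2129 joining peaks (40.8%, 38.7 to 42.9), 40.6% of single-overlap peaks and 21.2% of knockdown-only peaks. The difference between joining and single-overlap peaks was 0.189 percentage points (-2.00 to 2.41). It was -5.62 points (-9.43 to -1.75) with both lists at a −log10 p of at least 10, and -4.72 points (-8.41 to -0.864) with control peaks up to 300 bp apart merged. Gene bodies held 33.0%, 32.0% and 45.1% of the same classes and intergenic sequence 26.2%, 27.5% and 33.7%. Within bands of equal width the shares were further apart. At a width of 1000 to under 1400 bp the promoter share was 41.3% in joining and 49.9% in single-overlap peaks (difference -8.63 points, -12.5 to -4.65), and at 1400 to under 1800 bp it was 40.2% and 54.2% (difference -14.0 points, -19.1 to -8.88). At 1800 to under 2400 bp the difference was -2.29 points with an interval that included 0 (-10.8 to 6.25). A TSS lay inside 28.7% of joining peaks, 12.8% of single-overlap peaks and 1.93% of knockdown-only peaks, classes of unequal width that were not compared within bands here.

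Within joining peaks TSSs were densest in the filled gaps. TSS density was 0.784 per kb (0.718 to 0.855) in the filled gaps, against 0.0965 per kb in the parts that were control peaks and 0.0831 per kb in the parts beyond them. As counts, 513 TSSs lay in filled gaps, 177 in control-peak parts and 44 beyond them. A canonical protein-coding TSS lay in 452 of 2266 filled gaps (19.9%, 18.4 to 21.6) and 513 genes started in one. In 45 filled gaps the starts faced both strands, as at the gap shared by PPP1R3D and FAM217B, and neighbouring gaps of 1 joining peak held the starts of TRMT112 and PRDX5. Of the 939 filled gaps within 2 kb of a TSS, 578 (61.6%, 58.4 to 64.6) had their centre upstream of it, and the median centre was 44 bp upstream. This is where the nucleosome-depleted region of an active promoter is known to lie.

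Filled gaps held a TSS less often than kept-apart gaps, where 859 of 3369 had one (25.5%, 24.0 to 27). The difference, filled minus kept apart, was -5.55 points (-7.74 to -3.32). Within bins of gap length the difference was -3.56 points (-6.40 to -0.694) at 200 to under 400 bp and -6.82 points (-11.5 to -1.46) at 400 to under 700 bp. Length was not fully matched in a bin: 419 filled and 89 kept-apart gaps had 200 to under 225 bp, and 62 and 190 had 375 to under 400 bp. The part of length in these differences was not tested. At 700 to under 1000 bp 5 of 36 filled gaps held a TSS, against 36.1% of 302 kept-apart gaps. With both H3K27ac lists held to a −log10 p of at least 10, the difference was -2.54 points and its interval included 0 (-6.75 to 1.76).

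MYOD summits were likewise densest in the filled gaps. In joining peaks knockdown MYOD summits had a density of 0.420 per kb (0.372 to 0.473) in filled gaps, 0.126 per kb in the control-peak parts and 0.0831 per kb beyond them. Control MYOD summits showed the same order, at 0.417, 0.0910 and 0.0529 per kb. A MYOD peak of the knockdown list reached into 414 of 2266 filled gaps (18.3%, 16.7 to 19.9), and one of the control list into 356 (15.7%, 14.3 to 17.3). The profile around gap centres shows MYOD summits and starts falling off within about a gap length on either side.

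**Figure D2:**
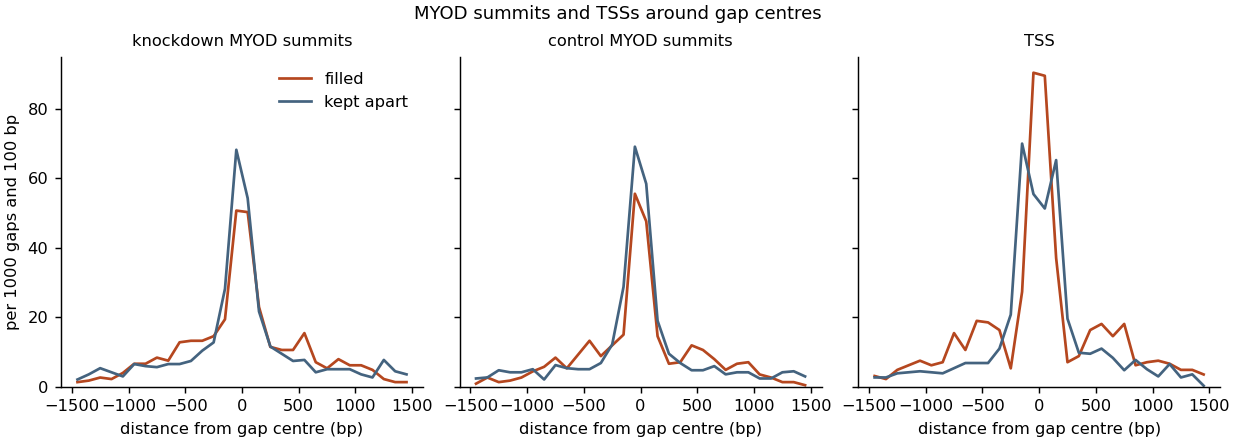
Number of knockdown MYOD summits, control MYOD summits and TSSs per 1000 gaps in 100 bp bins, by distance from the gap centre in bp, for filled (red) and kept-apart (blue) gaps. All profiles are highest within 200 bp of the centre. In the bin just left of the centre filled gaps had 50.8 and kept-apart gaps 68.3 knockdown MYOD summits per 1000 gaps, and for TSSs 90.5 and 55.5. One bin further left the TSS values were 27.4 in filled and 70.1 in kept-apart gaps.

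Filled gaps held MYOD less often than kept-apart gaps in either list. For knockdown MYOD the shares were 18.3% of filled and 21.7% of kept-apart gaps (difference -3.46 points, -5.55 to -1.32). For control MYOD, 15.7% of filled and 21.2% of kept-apart gaps held a peak (difference -5.45 points, -7.47 to -3.40). At 200 to under 400 bp, the range with most gaps in both classes, the differences were -3.00 points (-5.74 to -0.255) and -4.10 points (-6.75 to -1.43). Filled gaps tended to be the shorter ones within that range too, and the part of length was not tested. At 400 to under 700 bp the differences were -4.55 points (-9.68 to 1.18) for knockdown MYOD and -8.34 points (-13.2 to -2.85) for control MYOD. Under 200 bp both intervals included 0 (-0.919 and -2.05 points), as they did at 700 to under 1000 bp, where the sign was the other way (0.11 and 2.23 points). Away from promoters, over 2 kb from a TSS, they were -4.11 points (-7.00 to -1.15) for knockdown MYOD and -7.13 points (-10.0 to -4.17) for control MYOD, and within 2 kb of a TSS both intervals included 0. Set against every unjoined gap, the knockdown MYOD difference shrank to -0.253 points (-2.16 to 1.72), and with control peaks up to 300 bp apart merged it was -2.27 points with an interval that included 0 (-5.55 to 1.29).

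**Figure D3:**
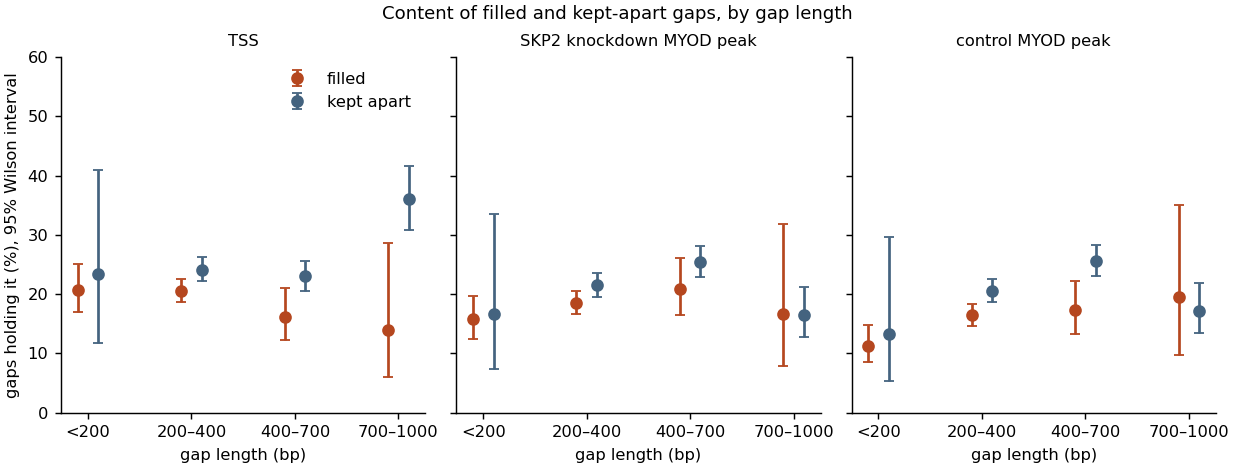
Share of gaps (%) that held a TSS, a knockdown MYOD peak or a control MYOD peak, by gap length in bp, for filled (red, left of each pair) and kept-apart (blue) gaps; bars are 95% Wilson intervals. At 200 to under 400 bp the filled shares were 20.6%, 18.5% and 16.4% and the kept-apart shares 24.1%, 21.5% and 20.5%.

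Most MYOD in the filled gaps was present in both lines. Of the 495 filled gaps with MYOD in either list (21.8%), 275 had it in both lists, 139 in the knockdown list alone and 81 in the control list alone. Counted as peaks, 118 of the 406 knockdown MYOD peaks in filled gaps overlapped no control MYOD peak (29.1%, 24.9 to 33.7), while over the whole knockdown MYOD list this share was 55.9%. Outside filled gaps it was 57.3%, a difference of -28.2 points (-32.6 to -23.5). Kept-apart gaps gave a close value, 196 of 730 peaks (26.8%, 23.8 to 30.2), and the difference between filled and kept-apart gaps was 2.21 points (-3.15 to 7.75). In the other direction 74 of 350 control MYOD peaks in filled gaps overlapped no knockdown MYOD peak (21.1%), against 35.9% of the whole control MYOD list. The MYOD peaks in filled gaps were strong ones, with a median fold of 6.33 in knockdown cells against 5.35 for that whole list, and 6.57 in control cells against 5.71. The lowest background implied by the deposited folds and p-values was 1.94 fragments per position in the knockdown MYOD list and 1.48 in the control one. Their ratio was 1.31. The parts of peak strength and of this background in these shares, and in MYOD peaks found in 1 list alone, were not tested.

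Few filled gaps held both a TSS and a knockdown MYOD peak, and each was uncommon taken alone (19.9% and 18.3% of filled gaps). Whether they shared gaps less often than those separate shares imply was not tested. Of the 2266 filled gaps, 58 (2.56%) held both a TSS and a knockdown MYOD peak, 394 (17.4%) a TSS alone, 356 (15.7%) MYOD alone and 1458 (64.3%, 62.3 to 66.3) neither. Over whole peaks, 28.4% of joining peaks (26.5 to 30.3) overlapped a knockdown MYOD peak, against 14.6% of single-overlap and 7.06% of knockdown-only peaks. Joining peaks were also wider, and within bands of equal width from 600 to under 2400 bp the difference between joining and single-overlap peaks was 1.90 to 4.79 points, with every interval including 0.

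The sequence at the gap centres set distal from promoter valleys. Motifs were searched on both strands of the 200 bp around each gap centre. The MYOD E-box CAGCTG was in 22.4% of filled gaps (20.7 to 24.2), 26.0% of kept-apart gaps and 9.70% of windows on the summits of the joined control peaks. The same windows moved by 20 kb gave 8.25%, and the last 200 bases of 35114 RefSeq promoters gave 13.1%. Filled gaps with a knockdown MYOD peak held it in 56.0% (51.2 to 60.7) and those without in 14.9% (13.4 to 16.6). The other E-box, CAGGTG or its reverse CACCTG, was in 11.6% of filled gaps, 14.3% of kept-apart gaps and 18.2% of moved windows. Filled gaps with a knockdown MYOD peak held it in 24.2% (20.3 to 28.5) and those without in 8.80% (7.59 to 10.2).

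The AP-1 motif TGANTCA, bound by FOS and JUN dimers, was frequent in distal valleys and rare at promoters. It was in 29.1% (26.7 to 31.6) of the 1327 filled gaps over 2 kb from a TSS and in 4.90% (3.69 to 6.47) of the 939 within 2 kb. CAGCTG was in 29.2% and 12.8% of the same classes. In kept-apart gaps the AP-1 shares were 28.4% (26.6 to 30.4) and 3.88%, and the CAGCTG shares 34.4% (32.4 to 36.4) and 11.5%. The AP-1 and CAGCTG shares were thus close in distal filled gaps, and CAGCTG was the more frequent in distal kept-apart gaps. Over all gaps TGANTCA was in 19.1% of filled gaps, 19.4% of kept-apart gaps (difference -0.348 points, -2.43 to 1.77), 4.39% of joined control summits and 6.09% of moved windows. The median GC content was 47.0% in distal and 65.0% in promoter filled gaps, with 1.5 and 8.5 CG dinucleotides per 100 bp. A match to these letters is a description of the window, not evidence of binding.

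At the muscle regulator MYOG the filled gap held a MYOD peak in knockdown cells alone. MYOG encodes myogenin, the factor that drives terminal muscle differentiation, and it is a direct target of MYOD. The joining peak, at chr1:203091333-203092666 (1334 bp, 4.17-fold), had its summit 5716 bp from the MYOG start, in the body of ADORA1. It spanned control peaks of 239 bp (2.68-fold) and 203 bp (2.83-fold) and a gap of 630 bp. Its own summit was in that gap, as in 105 joining peaks in all. The MYOD peak in the gap was 215 bp wide and 4.60-fold in knockdown cells, and no control MYOD peak overlapped it. The part in this of the background difference between the MYOD lists, given above, was not tested. The CAGCTG of the printed MYOG stretch began 1 bp from the summit of that MYOD peak.
Of the other loci looked up by name, SKP2, MYOD1, MYL1, MYBPH, CDKN1A, CDKN1B and CDKN1C, none had a joining peak in the gene or within 10 kb. SKP2 had 4 knockdown and 2 control peaks there, and CDKN1B, which encodes p27, had 5 and 5, each with 1 kept-apart pair. MYOD1 had 2 and 2.

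**Figure D4:**
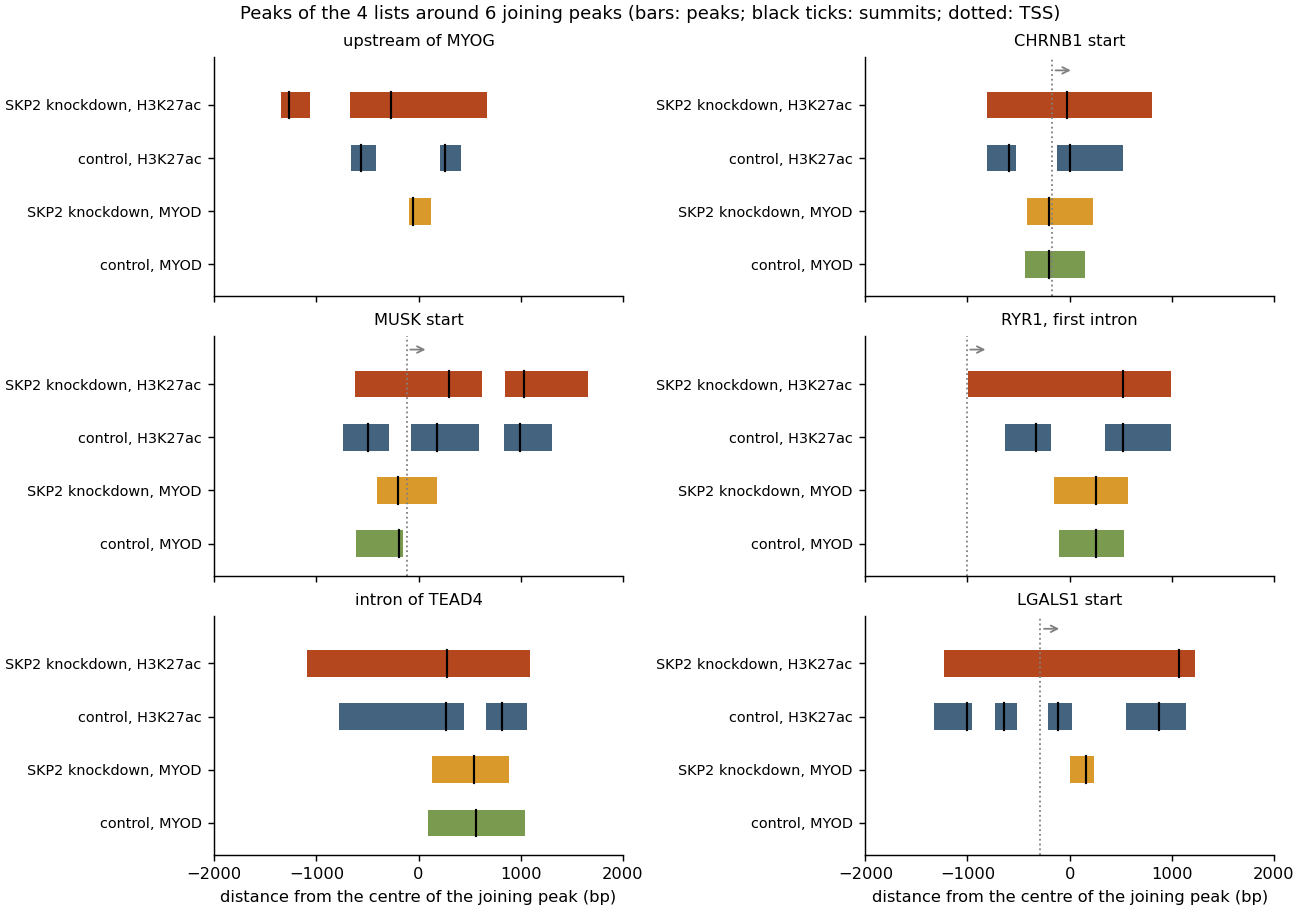
Peaks (bars) and summits (black ticks) of the 4 lists within 2 kb of the centre of 6 joining peaks, by distance in bp from that centre, with each TSS dotted and its direction arrowed. Knockdown rows stand above the control row of the same antibody. At MYOG and LGALS1 a knockdown MYOD peak sits in a gap where the control list has none, and at CHRNB1, MUSK, RYR1 and TEAD4 both lists have MYOD in the gap.

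At 3 genes of the neuromuscular synapse and calcium release the filled gap held MYOD in both lines. CHRNB1, the beta subunit of the muscle acetylcholine receptor, had a joining peak of 1618 bp and 9.57-fold over its start (chr17:7444425-7446042). Its 404 bp gap held the CHRNB1 TSS and MYOD peaks of 18.1-fold in knockdown and 16.4-fold in control cells. MUSK, the receptor kinase that clusters those receptors in response to agrin, had a joining peak of 1245 bp and 5.50-fold (chr9:110668285-110669529). Its 216 bp gap held the MUSK start and MYOD at 7.87-fold in knockdown and 5.69-fold in control cells. RYR1, the calcium release channel of the sarcoplasmic reticulum, had one of 1994 bp and 7.44-fold in intron 1 (chr19:38433703-38435696), with MYOD at 12.0-fold in knockdown and 13.8-fold in control cells inside a 528 bp gap. The MYOD fold was thus higher in knockdown cells at CHRNB1 and MUSK and in control cells at RYR1. These folds have no replicate and are each scaled to the background of their own list, so they do not compare amounts of MYOD. In the same list JPH2, which tethers the sarcoplasmic reticulum to the surface membrane, had a joining peak in intron 2 and MYOD at 5.85-fold in knockdown and 6.70-fold in control cells in its 307 bp gap.

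Genes of muscle transcription factors had joining peaks with MYOD in the gap as well. The joining peak in intron 10 of TEAD4, a partner of YAP that binds MCAT elements of muscle genes, was 2185 bp wide and 6.98-fold (chr12:3032045-3034229). MYOD in its 222 bp gap reached 18.0-fold in knockdown and 16.8-fold in control cells, and the printed TEAD4 stretch holds a CACCTG and a CAGCTG. LBX1, a homeobox factor of migrating muscle precursors, had a joining peak of 1861 bp and 5.99-fold at its promoter (chr10:101229240-101231100), with MYOD at 6.84-fold in knockdown and 4.91-fold in control cells in the gap. EYA4, a transcriptional coactivator, had one of 1773 bp in intron 3 whose 192 bp gap held a MYOD peak of the control list alone (5.29-fold). That gap was under the 207 bp that the knockdown list could resolve, and the peak no longer joined with control peaks up to 206 bp apart merged. MEF2D, a partner of MYOD in activating muscle genes, had a joining peak over 3 control peaks (2768 bp, 4.16-fold) with no MYOD peak in its gaps. MYOD peaks of 4.70-fold in knockdown and 6.86-fold in control cells overlapped that joining peak, with summits beyond its outermost control peak.

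Sarcomere genes had joining peaks at MYH7, MYL11, MYL6B, NEB, TNNC2, TNNT1 and TPM2. MYH7, the slow and cardiac beta myosin heavy chain, had one 3394 bp from its start, 1685 bp wide and 6.34-fold (chr14:23437737-23439421). MYOD in its 198 bp gap was 7.02-fold in knockdown and 7.74-fold in control cells. NEB, the giant nebulin of the thin filament, had a joining peak of 7.12-fold in intron 1 with a 205 bp gap, and MYL11, the fast skeletal regulatory light chain, had one of 10.1-fold with a 193 bp gap. Neither gap held MYOD. The gaps at MYH7, NEB and MYL11 were all under 207 bp, so a peak list with the knockdown spacing could not have shown them, and the joining there cannot be told apart from that limit.

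The joining peaks with the highest score and a knockdown MYOD summit in the gap were spread over muscle and other genes. The score is 10 times the −log10 p of the summit. The intergenic peak at chr7:47178985-47180527 (12.8-fold) held MYOD at 14.8-fold in knockdown and 14.6-fold in control cells. The peak at chr10:124647601-124649678, with FAM53B as the nearest start, held MYOD at 13.6-fold in knockdown and 13.1-fold in control cells. In an intron of ANK1, which encodes the membrane skeleton protein ankyrin 1, the folds were 9.99 in knockdown and 8.96 in control cells. At the gap near POLR2A, the largest subunit of RNA polymerase II, MYOD was 8.99-fold in knockdown cells and no control MYOD peak overlapped it. The others of the 10 were at TEAD4, CD63, FAM217B, ABHD16B, MYT1 and TSTD2. Of these the gaps at CD63 (188 bp) and ABHD16B (198 bp) were under 207 bp. So was the FAM217B gap that held the MYOD summit (184 bp).

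Of the 4 joining peaks that spanned 4 control peaks, 3 are described here, at LGALS1, at SMPD4 and near KLRK1. The one over the start of LGALS1, which encodes galectin-1, was 2464 bp wide and 4.67-fold (chr22:37674690-37677153). Its control peaks were weak and even, at 3.72-, 3.43-, 3.42- and 3.45-fold. Of its 3 gaps, of 231, 305 and 533 bp, the middle one held the LGALS1 start and the last a MYOD peak of 5.59-fold in the knockdown list alone. At SMPD4, a sphingomyelinase, 3 gaps of 309, 188 and 186 bp lay along the first intron and start. The gaps of 188 and 186 bp were under the 207 bp that the knockdown list could resolve. Joining across them cannot be told apart from that limit. The joining peak near KLRK1, an immune receptor gene, was 2933 bp wide and 2.82-fold, with its summit 26746 bp from the start.

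The longest filled gaps were 1089 bp at GMEB2, 948 bp near TIMP2, 923 bp at MYL5, 918 bp at DDIT3 and 913 bp at PALMD. The GMEB2 gap rested on a control peak with a −log10 p of 4.96, and with both lists held to at least 5 the GMEB2 peak no longer joined. None of these 5 held a TSS or a MYOD peak. Their joining peaks were of moderate strength, between 3.47- and 4.98-fold. The highest-scoring joining peaks with a start in the gap were those at ZNF460 (12.7-fold), AP3M1 with the ADK start (11.5-fold), TIA1 (10.9-fold), DAGLB (9.83-fold) and MTX1 with the THBS3 start (9.43-fold). At ZNF460 the stronger control peak was 14.7-fold, above the knockdown fold, and the gap of 199 bp was under 207 bp.

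Across genes, 2397 of 20033 protein-coding genes (12.0%, 11.5 to 12.4) had a joining peak in the gene or within 10 kb, and 17.1% of the 14044 with any knockdown H3K27ac peak there. The gene list shares below are over all listed genes and are to be read against that 12.0%. Over listed genes with a knockdown peak, to be read against 17.1%, they were 39.1% for myogenic regulators, 28.6% for fusion, synapse and calcium handling and 21.9% for sarcomere genes. They were 33.3% for RAS, ERK and AP-1 signalling, 29.2% for stemness or MYOD inhibition, 31.25% for the SKP2 ligase and NEDD8 conjugation and 14.3% for cell cycle and replication. Of 26 myogenic regulators 9 had one (EYA4, LBX1, MEF2C, MEF2D, MYF6, MYOG, PAX3, SIX4 and TEAD4; 34.6%, 19.4 to 53.8). Of 34 genes of fusion, synapse and calcium handling 8 had one (23.5%, 12.4 to 40.0), among them CHRNA1, CHRND and AGRN. Of 40 sarcomere genes 7 had one (17.5%, 8.74 to 32.0).
Genes of growth and stem-like programmes had them too. The intervals of the stemness, sarcomere and cell cycle lists included the 12.0% of all protein-coding genes. A higher share was therefore not shown for those lists. Of 36 genes of RAS, ERK and AP-1 signalling 12 had one (33.3%, 20.2 to 49.7), including NRAS (10.0-fold, with its TSS in a 246 bp gap), the immediate early gene EGR1 (9.46-fold) and the ERK phosphatase DUSP6 (3.63-fold). Of 30 genes of stemness or of MYOD inhibition 7 had one (23.3%, 11.8 to 40.9). In that list ID1, which sequesters MYOD's dimer partners, held a knockdown MYOD peak of 2.84-fold in its 314 bp gap and none in control. The −log10 p of that MYOD peak was 4.55, below the 5 that the study stated. SNAI2, a repressor that competes for E-boxes, had a 187 bp gap without MYOD. That gap was under 207 bp, so the joining at SNAI2 cannot be told apart from the spacing limit of the knockdown list.
Of 17 genes of the SKP2 ligase and of NEDD8 conjugation 5 had one: CAND1, CKS1B, FBXW11, NEDD8 and UBE2M. CKS1B, the cofactor SKP2 needs to bind p27, had a joining peak of 4.62-fold with a 221 bp gap. Of 36 cell cycle and replication genes 5 had one (13.9%, 6.08 to 28.7), and the one inside CCND3, which encodes cyclin D3, held MYOD at 14.0-fold in knockdown and 11.9-fold in control cells. None of 11 CDK inhibitor and pocket protein genes had one, although all 11 had a knockdown H3K27ac peak, and the interval for a count of 0 of 11 reaches 25.9%.

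**Figure D5:**
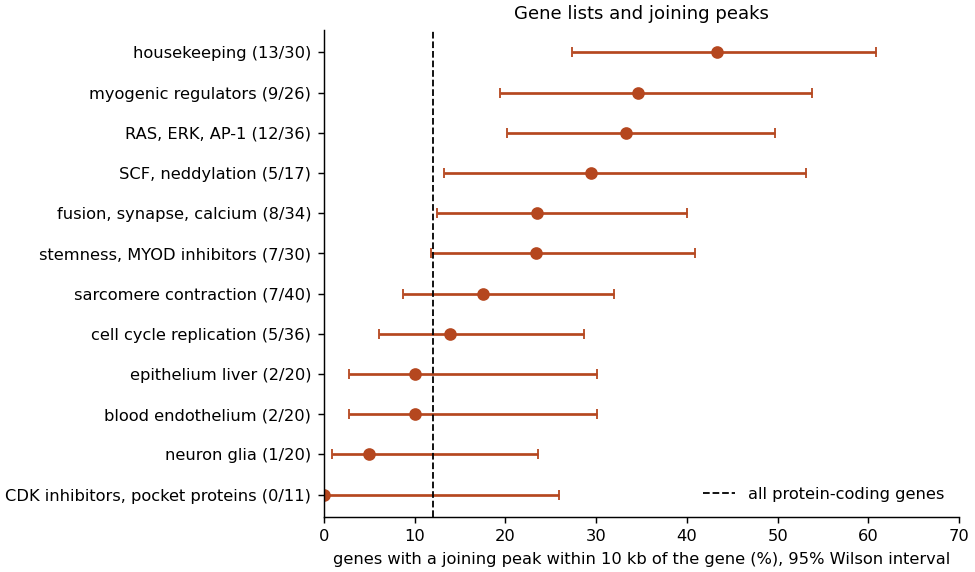
Share of each gene list (%) with a joining peak in the gene or within 10 kb, with 95% Wilson intervals and the count of genes in brackets; the dashed line is the 12.0% of all protein-coding genes. Housekeeping genes (13 of 30) stand highest and CDK inhibitors (0 of 11) lowest.

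Housekeeping genes had the largest share of the 12 lists, 13 of 30 (43.3%, 27.4 to 60.8), with ACTB, GAPDH, PPIA and HSP90AB1 among them, and all 30 had a knockdown peak. Of genes that mark other cell types, 1 of 20 neural (MBP), 2 of 20 blood and endothelial (CDH5 and VWF) and 2 of 20 epithelial or liver genes (EPCAM and GRHL2) had one. The intervals of these shares were 0.888% to 23.6% for the neural list and 2.79% to 30.1% for each of the others. All included the 12.0% of all protein-coding genes, so a lower share at these genes was not shown. Among listed genes with a knockdown peak, to be read against 17.1%, the counts were 1 of 7 neural, 2 of 10 blood and endothelial and 2 of 5 epithelial or liver genes. Of 10 muscle markers, 9 had a knockdown and 8 a control H3K27ac peak in the gene or within 10 kb. DES, which encodes the muscle intermediate filament desmin, had none in either list. A knockdown peak there was common, at 14044 of all 20033 protein-coding genes, so these counts do not identify a muscle line. Of the markers, CHRNA1, MEF2C, MYF6 and MYOG had joining peaks. By chromosome the joining share was highest on chromosome 19 (7.08%) and lowest on chromosome 13 (2.15%).

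At the edge of the selection the values ran on without a break. The smallest overlap with a second control peak among members was 6 bp, and 4 members overlapped it by 10 bp or less and 34 by 50 bp or less. Just outside, 1 single-overlap peak ended directly against a second control peak (0 bp away), 8 within 9 bp and 32 within 49 bp.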

How the data were processed

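Chromatin of RD cells had been fixed, digested with micrococcal nuclease and immunoprecipitated for H3K27ac or MYOD, with Drosophila chromatin as a spike-in. Per the labels and the study's methods, the authors aligned reads to GRCh38 (hg38) with BWA 0.7.17, called peaks with MACS3 in narrow mode on each library against an input, keeping duplicates, and removed peaks in an exclusion list. A role of the spike-in in peak calling is not given in the sources used here. The stated threshold is a −log10 p of 5, while 2.41% of knockdown and 3.60% of control H3K27ac peaks lay between 4 and 5.

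The deposited peak lists give start, end and summit, a fold (the ratio of summit pileup to local background), the −log10 of the p-value and of the q-value, and a score of 10 times the −log10 p. Replicates were not pooled, since each list is 1 library. Read depth is unknown, because the lists hold no read counts, and the number of peaks limits the precision. 1 peak on another contig in each H3K27ac list was left out.

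Overlaps, gaps and TSS distances were computed in Python 3.11.15 with numpy 2.4.6, pandas 2.3.3, scipy 1.17.1 and pysam 0.24.0. Genes came from GENCODE release 44 on hg38 (20033 protein-coding genes, canonical transcripts), sequence from hg38, and the promoter comparison windows from RefSeq. Joining was tested on simulated peaks with known joins. The 12 gene lists held 320 entries, all matched. The members and lists were chosen with earlier results of these data known. Regions named are joining peaks at the looked-up loci, the 10 spanning most control peaks, the 10 of highest score with a knockdown MYOD summit in a gap, the 5 longest gaps, the 5 of highest score with a start in a gap, and up to 4 genes per list by score. TNNC2, TNNT1, TPM2, CHRNA1, CHRND, AGRN and other list genes named without values only complete a count. Alternatives were other p thresholds, lists of equal length, 50% of each control peak inside, merged control peaks, and other definitions of promoter, TSS, MYOD overlap and comparator. Of the joining peaks over 4 control peaks, 1 is not reported here.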

Additional observations from a re-analysis of the deposited data

How the results depend on the processing

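Of 69 values recomputed under the alternatives, 44 stayed within 1.5 times (counts) or within the 95% interval of the reported value (shares and differences), 25 did not, and no difference whose interval excluded 0 changed sign. With both H3K27ac lists at a −log10 p of at least 10 there were 686 joining peaks, 43.7% at promoters (-5.62 points from single-overlap peaks, -9.43 to -1.75, where the reported interval included 0). Filled gaps then held a TSS in 24.75% (-2.54 points from kept-apart gaps), knockdown MYOD in 22.9% and control MYOD in 20.3%. With control peaks up to 300 bp apart merged there were 641 joining peaks, 36.0% at promoters (-4.72 points, -8.41 to -0.864), and 15.1% of filled gaps held a TSS (-10.5 points). The knockdown MYOD difference was then -2.27 points and its interval included 0 (-5.55 to 1.29). With lists of equal length the differences were -2.17 points for promoters, -5.70 for knockdown MYOD and -7.68 for control MYOD. A promoter of 1 kb gave 37.15% of joining peaks at promoters, and starts of every transcript gave 31.3% of filled gaps with a TSS. Counting MYOD summits gave 12.1% for knockdown MYOD (-6.21 points) and 12.05% for control MYOD. Holding MYOD to a −log10 p of at least 10 gave 13.6% and 12.1%. Against every unjoined gap the differences were -2.12 points for a TSS, -0.253 for knockdown MYOD and -2.66 for control MYOD. The cause of these shifts was not tested. Of the 65 named joining peaks, 64 still joined at a −log10 p of at least 5, 33 at 10, 65 with lists of equal length, 64 with 50% of each control peak inside, 54 with control peaks up to 206 bp apart merged and 25 at 300 bp. GMEB2 was the one lost at 5. Those lost at 10 included MYOG, LBX1, CHRNB1, LGALS1, JPH2, NEB, CD63, NRAS, EGR1, ID1 and SNAI2, and those lost at 300 bp MUSK, TEAD4, LBX1, TIA1, CD63, NRAS, MYH7, NEB and MYL11. At 206 bp the losses included MYH7, NEB, MYL11, MYL6B, EYA4, SNAI2, CAND1, CD63, ABHD16B and ZNF460. No paired analysis was possible because each group had 1 library. With 1 library per line, differences between the lines cannot be told apart from differences between libraries.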
